A study of Mus musculus with 12 samples.

Results

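The 10 genes described here are used by Müller cells of the retina for homeostasis and were followed in retinal RNA sequencing of mice with experimental autoimmune encephalomyelitis and optic neuritis. They were chosen by gene symbol as genes of water, potassium, glutamate, acid and lipid handling, with earlier results of these data known. All 10 were found among the 54532 gene identifiers of the count table. All 10 also passed the filter on low counts, which left 18299 genes for testing. The 12 libraries came from retinas of wild type C57BL/6 mice aged 13 weeks and formed 4 groups with 3 libraries in each. SHAM mice were the sham control. MOG mice had been immunized with the myelin peptide MOG35-55 in Freund's adjuvant with mycobacterium, and had received pertussis toxin. GB20 mice had been immunized in the same way and then needled under anaesthesia at the acupoint GB20. GV16 mice had been immunized and needled at the control acupoint GV16. Immunization was thus shared by MOG, GB20 and GV16, and no group was needled without immunization. It is not stated if SHAM mice received adjuvant or toxin. Optic neuritis, adjuvant and toxin therefore cannot be told apart in MOG vs. SHAM. Whether the MOG mice were anaesthetized without needling is not stated, so needling and anaesthesia cannot be told apart. Several mice formed each group in each repeat of the experiment, and whether a library holds the retinas of more than 1 mouse is not stated either. The p-values below therefore measure the spread between these libraries only.

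Müller cells span the retina and are its main glia. They take up water and potassium through aquaporin-4 and Kir4.1 and pass them on to the vitreous and the vessels. They clear glutamate with the transporter GLAST and turn it into glutamine with glutamine synthetase. They also hydrate carbon dioxide with carbonic anhydrases and supply lipids to neurons in apolipoprotein particles. Of the 10 genes, Aqp4 encodes aquaporin-4 and Kcnj10 encodes the potassium channel Kir4.1. Slc1a3 encodes GLAST, Slc1a2 encodes the glutamate transporter GLT-1 and Glul encodes glutamine synthetase. Cones and bipolar cells make GLT-1, so Slc1a2 in whole retina does not stand for Müller cells alone. Car14 encodes the membrane-bound carbonic anhydrase XIV. Apoe and Clu encode the secreted lipid carriers apolipoprotein E and clusterin, Dbi encodes the acyl-CoA binding protein, and Abca8a encodes a lipid transporter of the ABC family.

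The promoters of Car14 and Glul are shown here, Car14 because it changed in both needled groups and Glul because it was the most abundant of the 10. Each window holds 300 bases from RefSeq on GRCm38.p6, from 250 bases before the start of transcription to 50 bases after it, and is written 5′ to 3′ on the strand of the gene. Capitals mark a motif match. On GRCm38 the gene Car14 spans chr3:95897768-95904691 with 13 merged exons, and Glul spans chr1:153899944-153909723 with 10. Car14 lies on the minus strand of chromosome 3 and its window is chr3:95904636-95904935. Glul lies on the plus strand of chromosome 1 and its window is chr1:153899679-153899978.
Car14: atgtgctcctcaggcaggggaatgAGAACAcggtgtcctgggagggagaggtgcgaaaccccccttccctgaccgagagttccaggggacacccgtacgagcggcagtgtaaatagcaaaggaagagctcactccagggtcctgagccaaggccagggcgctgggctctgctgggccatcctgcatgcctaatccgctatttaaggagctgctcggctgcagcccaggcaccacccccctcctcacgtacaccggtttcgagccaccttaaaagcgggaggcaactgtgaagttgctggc
Glul: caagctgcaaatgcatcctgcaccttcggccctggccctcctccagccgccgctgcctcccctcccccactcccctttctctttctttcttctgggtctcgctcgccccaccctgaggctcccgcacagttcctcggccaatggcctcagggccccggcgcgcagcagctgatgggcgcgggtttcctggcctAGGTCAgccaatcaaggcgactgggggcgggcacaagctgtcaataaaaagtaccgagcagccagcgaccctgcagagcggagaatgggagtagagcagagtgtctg
The capitals in Car14 are AGAACA, the half-site of the glucocorticoid receptor, at position -226 from the start of transcription. Those in Glul are AGGTCA, the half-site of other nuclear receptors, at position -57. A set of 3 motifs that do not overlap each other in their letters were searched on both strands, and of 32851 promoter windows AGAACA was found in 19.0%, AGGTCA in 16.3% and the E-box CACGTG in 7.15%. Windows were at hand for 8 of the 10 genes, with 11 windows in all. AGAACA or its reverse complement TGTTCT was also found in windows of Kcnj10, Apoe and Slc1a3, AGGTCA in that of Slc1a2 and CACGTG in that of Abca8a. These matches describe the letters only.

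Library totals ran from 15860278 to 19194280 counted fragments. Counts of the 10 genes ran from 729 for Car14 to 36047 for Glul in a library, so that counting error alone was at most 3.70%. Levels are given as CPM, the counts of a gene scaled to the library total, and levels between genes as FPKM, which also divides by gene length. The tissue carried the label's markers, since the Müller cell markers Dkk3 and Rlbp1 stood at 753 ± 25.5 and 377 ± 25.1 CPM (SD, n = 3) in SHAM. SHAM replicate 2 stood apart from the other libraries, since its counts fell with gene length by 0.10 on the log2 scale for each doubling, against slopes between -0.04 and 0.05 in the other 11 libraries. The changes of Aqp4, Clu and Car14 against SHAM are also given without it below, and the other genes named against SHAM are given with it only.

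Glul was the most abundant of the 10 genes on the FPKM scale, at 588 ± 49.8 (SD, n = 12 libraries), above 99.9% of the tested genes. Apoe followed at 240 ± 18.5 FPKM and Clu at 139 ± 14.7 FPKM, and the ranges of these 3 genes over the 12 libraries did not overlap. Dbi at 39.7 ± 5.58 FPKM and Abca8a at 36.4 ± 2.65 FPKM came next and overlapped each other. Aqp4 at 23.3 ± 3.26, Slc1a2 at 23.2 ± 0.98, Car14 at 22.2 ± 3.83 and Slc1a3 at 19.4 ± 1.38 FPKM formed a run of neighbours whose ranges overlapped. Kcnj10 was the lowest, at 10.8 ± 1.11 FPKM, and still above 73.1% of the tested genes. Among replicates of a group, Slc1a2 varied least, with a coefficient of variation of CPM between 2.23% and 5.56%. Dbi varied most, between 6.65% in MOG and 19.4% in SHAM.

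**Figure D1:**
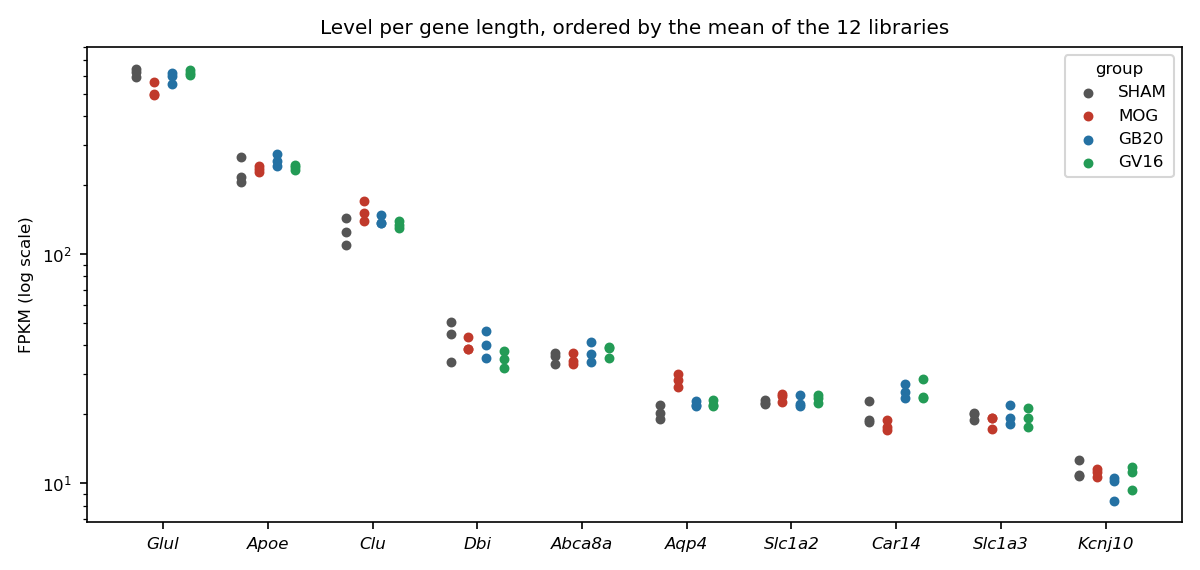
FPKM (log axis) of the 10 genes in each of the 12 libraries, 1 point per library, coloured by group and ordered by the mean over all libraries. Glul, Apoe and Clu stand apart from the other 7 genes, and Aqp4, Slc1a2, Car14 and Slc1a3 lie at like levels.

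MOG vs. SHAM compared immunized mice with sham controls, and Aqp4 was the only DEG among these genes. Aqp4 stood at 113, 97.4 and 104 CPM in the SHAM libraries and at 153, 145 and 136 CPM in the MOG libraries. All MOG libraries were above all SHAM libraries. The rise was 0.46 on the log2 scale (SE 0.07), or 1.38-fold with a 95% interval from 1.25 to 1.53, with an adjusted p of 0.000812 by edgeR (quasi-likelihood test, Benjamini-Hochberg adjustment). A DEG is a gene with an adjusted p under 0.05, and 1 of 10 stands beside 1.34% of all tested genes. In that comparison 0.568% of all tested genes were higher in MOG and 0.771% lower. Without SHAM replicate 2, Aqp4 was again a DEG. In bulk retina, more cells of a type and more RNA per cell cannot be told apart, and where a level is lower, neither can fewer cells and less RNA per cell.

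Glutamine synthetase and clusterin differed between MOG and SHAM without passing the threshold. Glul stood at 2163, 2081 and 2000 CPM in SHAM and at 1888, 1660 and 1681 CPM in MOG. Every MOG library was below every SHAM library, yet the log2 difference of -0.26 (SE 0.08) had an adjusted p of 0.117 in edgeR's test. DESeq2 gave 0.0143 on all 12 libraries and 0.0629 on the 6 libraries compared. Glul passed in 0 of 12 fits that left out a library and in 2 of 12 other alternatives. Clu stood at 432, 497 and 381 CPM in SHAM and at 586, 486 and 524 CPM in MOG. SHAM replicate 2 was its highest SHAM library and lay within the MOG range. The log2 difference of Clu was 0.29 (SE 0.09, adjusted p 0.135 in edgeR's test), and without SHAM replicate 2 it was 0.40 and passed. Glul and Aqp4 were the 2 genes of the 10 whose MOG and SHAM libraries did not overlap, beside 16.2% of all tested genes.

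The other 7 genes lay close to their SHAM level in MOG, with log2 differences from -0.17 for Car14 to 0.07 for Slc1a2. The glutamate transporters were at 170 ± 6.40 (SD, n = 3) and 160 ± 8.92 CPM for Slc1a3 and at 301 ± 6.69 and 315 ± 12.6 CPM for Slc1a2 in SHAM and MOG. Their 95% intervals ran from -0.26 to 0.08 and from -0.07 to 0.21 on the log2 scale. Kcnj10, the channel that works beside aquaporin-4, had 62.5 ± 5.83 CPM in the SHAM group and 60.7 ± 2.39 CPM in the MOG group, with an interval of the log2 difference from -0.24 to 0.15. Apoe, Dbi and Abca8a had log2 differences of 0.03, -0.10 and -0.03, and the libraries of both groups overlapped for each. The median log2 difference over the 10 genes was -0.04, beside -0.00235 over all tested genes.

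**Figure D2:**
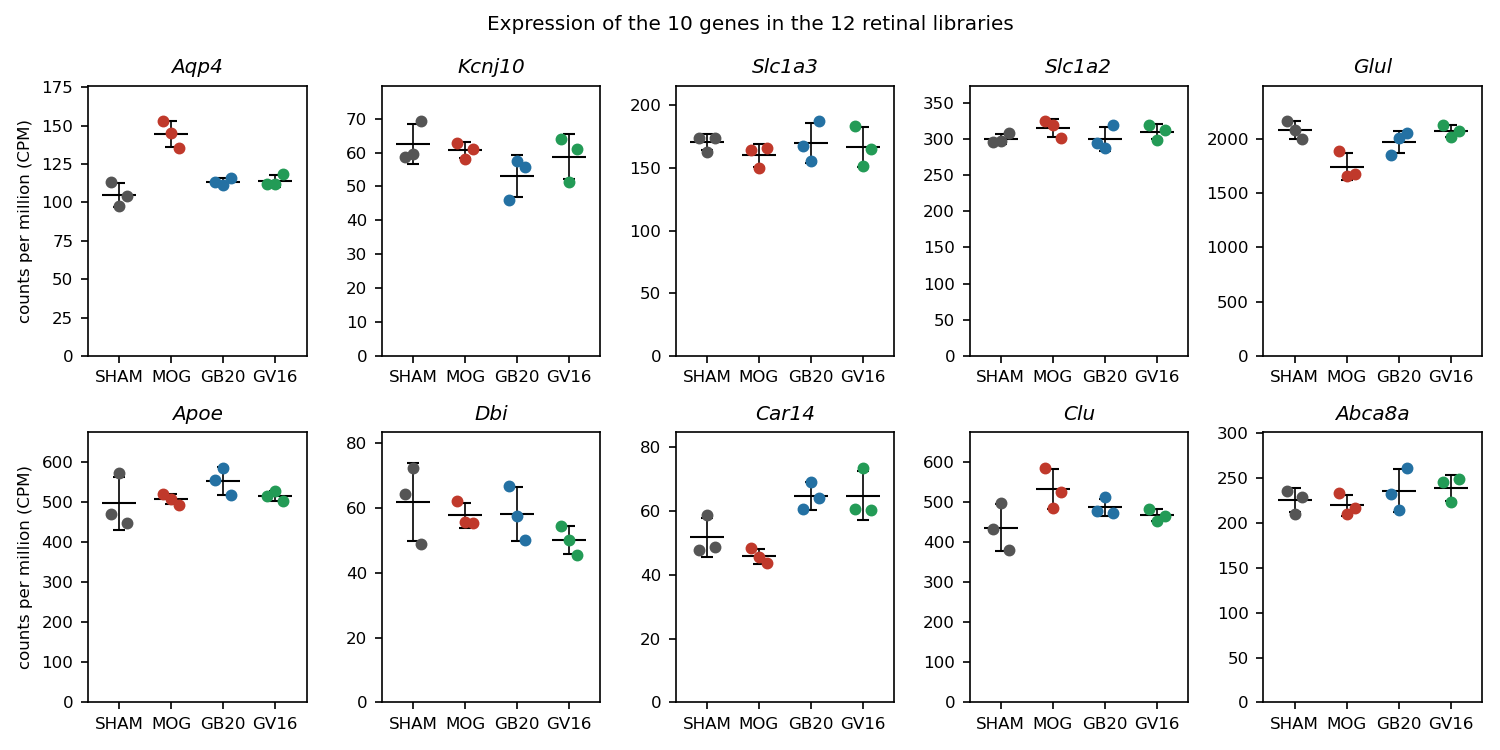
CPM (linear axis from 0) of each of the 10 genes in the 12 libraries, 1 point per library, with the group mean and SD as black lines. Aqp4 is high in the 3 MOG libraries only, Car14 is highest in the 6 needled libraries, and Glul has its lowest mean in MOG.

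GB20 vs. MOG and GV16 vs. MOG asked what needling did in immunized mice. They share the MOG libraries, so their values are given side by side and are not independent of each other or of MOG vs. SHAM. Aqp4 and Car14 were DEGs in both, 2 of 10 genes, beside 0.24% of all tested genes in GB20 vs. MOG and 0.164% in GV16 vs. MOG. In each, 1 of the 10 was higher, beside 0.0984% of all tested genes in GB20 vs. MOG and 0.0656% in GV16 vs. MOG. Likewise 1 of the 10 was lower in each, beside 0.142% and 0.0984%. As the 10 genes were chosen with earlier results of these data known, these counts are not evidence of an excess over all genes.

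Aqp4 stood at 113, 111 and 116 CPM in the GB20 libraries and at 112, 112 and 118 CPM in the GV16 libraries. All 6 needled libraries were below the lowest MOG library and 3 of them lay within the SHAM range. The log2 change from MOG was -0.35 (SE 0.07) in GB20, where CPM fell by 21.5%, and -0.34 (SE 0.07) in GV16, where it fell by 21.2%. In edgeR's test the adjusted p was 0.0293 and 0.0472. Against SHAM the log2 difference of Aqp4 was 0.11 with an interval from -0.03 to 0.26 in GB20 and 0.12 with an interval from -0.03 to 0.27 in GV16.

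Car14 was higher in the needled groups than in MOG and, by its values, than in SHAM. The SHAM libraries stood at 47.8, 58.8 and 48.7 CPM and the MOG libraries at 48.4, 45.5 and 43.8 CPM. The GB20 libraries stood at 60.6, 69.3 and 64.2 CPM and the GV16 libraries at 60.7, 73.6 and 60.4 CPM. Each needled library was above all 6 unneedled libraries. Needling at GB20 came with a log2 change of 0.50 (SE 0.09) from MOG, or 40.9% with an interval from 23.5% to 60.8%. At GV16 the log2 change was 0.50 (SE 0.09), or 41.4% with an interval from 23.9% to 61.4%. The adjusted p in edgeR's test was 0.0158 and 0.0202. Against SHAM the log2 differences were 0.32 (adjusted p 0.154) and 0.33 (adjusted p 0.122). With the replicate block, a term shared by same-numbered libraries of all groups, they were 0.32 and 0.33 and both passed (adjusted p 0.0325 and 0.0258). The labels do not give such a pairing. Both differences from SHAM also passed without SHAM replicate 2.

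The exons of Car14 share 445 bases, 17.5% of their length, with Aph1a on the other strand, a subunit gene of gamma-secretase. Whether counting used strand is not given in the sources used here, and without it reads of that stretch could not be assigned to either gene. Aph1a itself stood at 32.7 ± 2.72 CPM in MOG, 32.6 ± 2.29 in GB20 and 33.3 ± 2.44 in GV16 (SD, n = 3). Its log2 changes from MOG were -0.01 and 0.03. Smaller overlaps with other genes were found for Glul (116 bases, 3.49% of its exons, with Teddm2 and Mir8114) and Slc1a2 (189 bases, 1.44%, with Gm13872), and the other 7 genes had none.

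Fold changes also went with gene length. Over 11875 genes, which are not independent, the Spearman correlation of the log2 change with length was 0.357 in MOG vs. SHAM, -0.381 in GB20 vs. MOG and -0.155 in GV16 vs. MOG. With gene length offsets in the fit, the log2 change of Aqp4 from MOG was -0.34 in both needled groups (adjusted p 0.00990 in GB20 and 0.0149 in GV16). That of Car14 was 0.45 in GB20 and 0.49 in GV16 (adjusted p 0.00409 and 0.00276).

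The needling calls rested on few libraries. Without any single MOG or GB20 library, Aqp4 missed the threshold in GB20 vs. MOG, with log2 changes from -0.40 to -0.31. In GV16 vs. MOG, Aqp4 kept its call in 2 of the 12 fits that each left out 1 library, namely those without SHAM replicate 2 or 3, with changes from -0.39 to -0.30. Car14 kept its call in 8 of the 12 fits in each comparison. In GB20 vs. MOG it missed the threshold without replicate 2 or 3 of either group. In GV16 vs. MOG it missed it without any single MOG library and without GV16 replicate 2. Its log2 change stayed between 0.44 and 0.54 and between 0.40 and 0.55. When log2 FPKM was fitted in limma in place of counts, 0 of the 10 genes passed in either needling comparison. Few genes passed at all in those fits, 5 to 15 of all tested genes in GB20 vs. MOG and 5 to 9 in GV16 vs. MOG. By contrast the rise of Aqp4 in MOG vs. SHAM passed in 12 of 12 fits that left out a library and also on the FPKM scale.

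**Figure D3:**
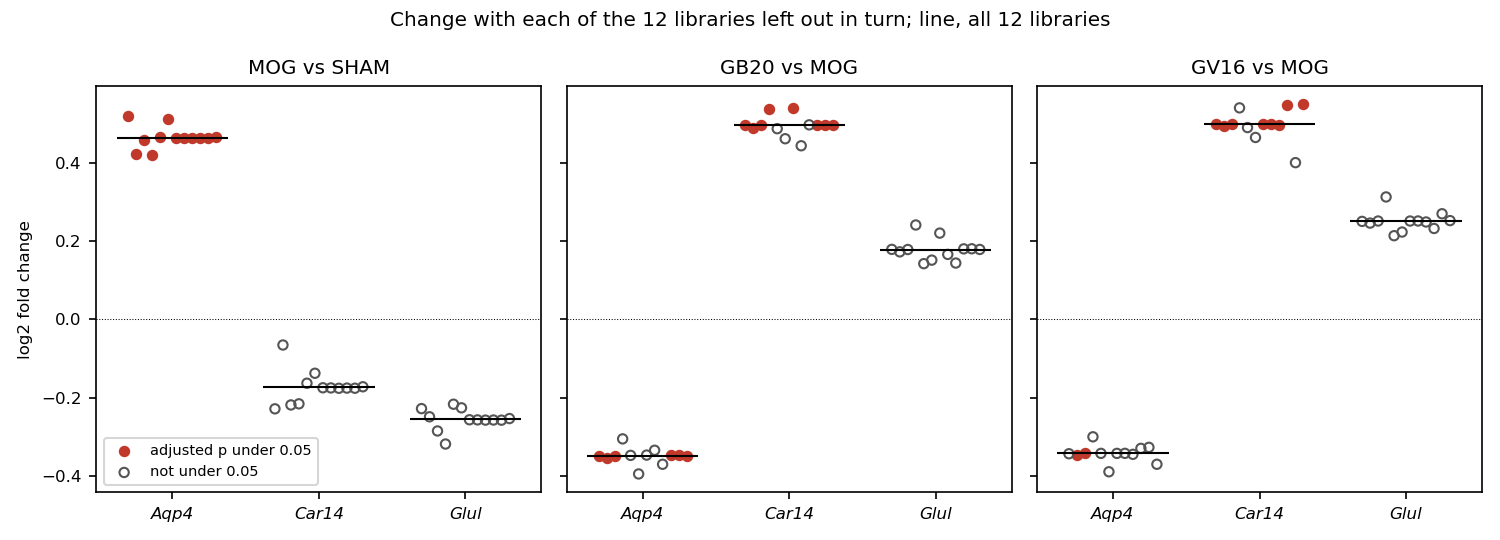
Log2 fold change of Aqp4, Car14 and Glul in 3 comparisons, in 12 fits that each lack 1 library (points; red, adjusted p under 0.05) and with all 12 libraries (line). The sign holds in every fit shown, while the calls of Aqp4 and Car14 against MOG come and go.

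Glul in the needled groups lay near its SHAM level. It stood at 1856, 2005 and 2055 CPM in GB20 and at 2130, 2022 and 2071 CPM in GV16. GB20 replicate 1 was below the highest MOG library, and all GV16 libraries were above MOG. The log2 differences from MOG were 0.18 (SE 0.08) and 0.25 (SE 0.08), with adjusted p of 0.567 and 0.472 in edgeR's test. In GV16 vs. MOG, DESeq2 gave Glul an adjusted p of 0.0118 on the 6 libraries compared and 0.0611 on all 12. From SHAM they were -0.08 and -0.005, with intervals from -0.24 to 0.08 and from -0.16 to 0.15.

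Of the lipid genes, none passed in either needling comparison. Clu was at 487 ± 21.6 CPM in GB20 and 467 ± 15.2 CPM in GV16 (SD, n = 3), with log2 differences from MOG of -0.13 and -0.19. Apoe was at 553 ± 33.8 and 515 ± 13.1 CPM, while Dbi ran from 50.1 to 66.6 and from 45.6 to 54.3 CPM, and Abca8a from 214 to 261 and from 223 to 248 CPM. The largest of their differences from MOG was that of Dbi in GV16, at -0.21 (SE 0.13, adjusted p 0.992 in edgeR's test). Among the transport genes, Kcnj10 was at 53.1 ± 6.15 CPM in GB20 and 58.8 ± 6.65 CPM in GV16, Slc1a3 between 155 and 187 CPM and between 152 and 183 CPM and Slc1a2 at 301 ± 16.7 and 310 ± 10.9 CPM. The GB20 libraries of Kcnj10 were all below MOG, but its log2 difference of -0.20 (SE 0.09) had an adjusted p of 0.623. Libraries did not overlap with MOG for 3 of the 10 genes in GB20 (Aqp4, Kcnj10 and Car14), beside 15.7% of all tested genes, and for 5 in GV16 (Aqp4, Glul, Dbi, Car14 and Clu), beside 12.6%. The median log2 difference over the 10 genes was 0.05 in GB20 and -0.00126 in GV16, beside 0.000837 and 0.00242 over all tested genes.

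**Figure D4:**
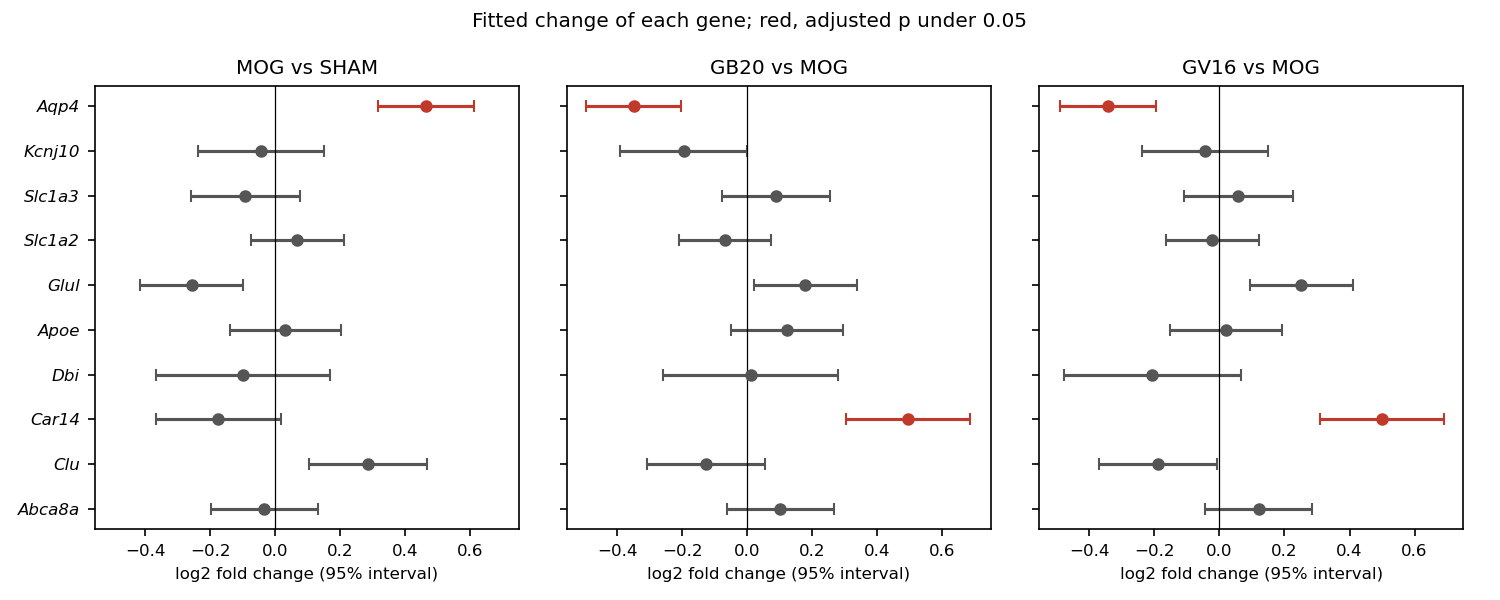
Fitted log2 fold change of each of the 10 genes with its 95% interval, for MOG vs. SHAM and for each needled group vs. MOG (red, adjusted p under 0.05). Aqp4 is red on the right of 0 in the first panel and on the left in the other 2, and Car14 is red on the right of 0 in both needling panels.

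GB20 and GV16 did not differ detectably in any of the 10 genes. The comparison called 0 of 10, beside 0.00546% of all tested genes. Of the 10, 0 had an unadjusted p under 0.05 in edgeR's test, beside 536 of all 18299 tested genes. DESeq2 on all 12 libraries or on 6 called 0 of 10 as well. For Aqp4 the log2 difference was -0.01 with an interval from -0.15 to 0.14, and for Car14 it was -0.005 with an interval from -0.19 to 0.18. The widest gap was that of Dbi, 0.22 with an interval from -0.05 to 0.49. Against SHAM, 0 of 10 passed in GB20, beside 0.344% of all tested genes, and 0 of 10 in GV16, beside 0.656%. With the replicate block it was 1 of 10 in each, Car14, and the DEGs among all genes went from 63 to 182 and from 120 to 236. Without the block, 2 of the 10 had an unadjusted p under 0.05 in edgeR's test in each (Kcnj10 and Car14 in GB20, Dbi and Car14 in GV16). Over all 18299 tested genes, 1657 did in GB20 vs. SHAM and 2001 in GV16 vs. SHAM. DESeq2 on all 12 libraries called 0 of the 10 in both.

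The genes that work beside the 10 were read from lists chosen by function. Of 18 tested partners in water and potassium handling, among them Aqp1, Kcnk1 and the dystrophin complex that anchors aquaporin-4, 0 were DEGs in edgeR's test in any of the 6 comparisons. The same count of 0 held for 17 genes of the glutamate cycle and for 14 of acid and base handling. Of all tested genes, 0.00546% to 1.34% were DEGs in these comparisons, so a count of 0 in lists this small says little. The median log2 differences of these lists in MOG vs. SHAM, in the order named, were 0.06, -0.04 and 0.02. Of 24 genes of lipid handling, 1 passed in 1 comparison, the phospholipid transfer protein gene Pltp. It fell by 0.61 on the log2 scale in GV16 vs. SHAM (SE 0.14, adjusted p 0.0490 in edgeR's test). In that comparison 0.656% of all tested genes were DEGs.

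Of 14 other markers of Müller cells tested, 0 passed in MOG vs. SHAM, beside 1.34% of all tested genes. Their median log2 difference was 0.01. Spon1, which encodes the matrix protein spondin-1, fell against MOG by 0.42 in GB20 (adjusted p 0.0125 in edgeR's test) and by 0.37 in GV16 (adjusted p 0.0472). Rlbp1, the retinaldehyde-binding protein of the visual cycle, fell by 0.36 in GV16 vs. SHAM (adjusted p 0.0261). The summed level of the 14 markers ran from 1809 to 1913 CPM in SHAM, from 1793 to 1979 CPM in MOG, from 1802 to 1846 CPM in GB20 and from 1736 to 1819 CPM in GV16. The MOG range thus covered the SHAM range, and the GB20 range overlapped it. The GV16 range reached the SHAM range only at its upper end, with a median of 1766 CPM against 1911 CPM in SHAM. Dkk3 and Rlbp1, at 753 and 377 CPM in SHAM, made up a large part of this sum. The part of Müller cell number in the changes of Aqp4 and Car14 was not tested.

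Genes of gliosis, the reactive state of these cells, had a larger median difference in MOG than the 10. Of 19 tested, 12 rose in MOG vs. SHAM, beside 0.568% of all tested genes, and 0 fell, beside 0.771%. The median log2 difference of the 19 was 1.07. Some of these genes were chosen with the study's gene tables from these libraries in view, so their direction is not independent evidence. Serpina3n, a protease inhibitor, rose by 2.08, Edn2 (endothelin-2) by 1.73, the complement gene C4b by 1.73 and Bcl3 by 1.70, with adjusted p between 0.00133 and 0.0263 in edgeR's test. Against MOG, Osmr, the receptor for oncostatin M, fell by 0.67 in GB20 and by 0.66 in GV16, and Fgf2, a growth factor, fell by 0.52 in GV16. No other gliosis gene passed in either needling comparison in edgeR's test. The paper, by DESeq2, also reported Gfap as reversed by needling at GV16. Here its log2 change in GV16 vs. MOG was -0.41 (SE 0.17, adjusted p 0.905 in edgeR's test). Against SHAM, 8 of the 19 gliosis genes were still higher in GB20 and 5 in GV16, and 0 were lower in either. Of all tested genes, 0.344% and 0.656% were DEGs in these comparisons, in either direction.

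Markers of some other cells moved with the groups as well. All 11 tested markers of retinal ganglion cells fell in MOG vs. SHAM, beside 0.771% of all tested genes. The median log2 difference of the 11 was -0.90. Their summed level was 902 to 1025 CPM in SHAM and 511 to 618 CPM in MOG, and it ran from 616 to 631 CPM in GB20 and from 483 to 693 CPM in GV16. Of these markers 0 passed against MOG in either needled group in edgeR's test, beside 0.24% and 0.164% of all tested genes. The paper, by DESeq2, reported the marker Sncg among the genes reversed by needling at GB20. In edgeR's test here, Sncg had a log2 change of 0.43 in GB20 vs. MOG (SE 0.11, adjusted p 0.228). The 5 astrocyte markers, whose cells also make aquaporin-4, summed to 73.6 to 81.4 CPM in SHAM, 102 to 111 CPM in MOG, 95.9 to 120 CPM in GB20 and at least 90.8 CPM with a median of 99.3 CPM in GV16. Of these, Gfap alone passed in MOG vs. SHAM, and the astrocyte gene Pax2 stood at 0.71 ± 0.25 CPM in the SHAM group and 0.76 ± 0.31 CPM in the MOG group (SD, n = 3). Gfap, which is also on the gliosis list, stood at 23.1 ± 3.26, 54.9 ± 3.08, 51.2 ± 12.3 and 41.3 ± 7.0 CPM in SHAM, MOG, GB20 and GV16 (SD, n = 3). The 8 blood vessel markers summed to 231 to 266 CPM in SHAM and 251 to 267 CPM in MOG, and to 229 to 238 CPM in GB20 and 196 to 244 CPM in GV16, so that neither needled group overlapped MOG. Their median log2 difference from MOG was -0.27 in GB20 and -0.21 in GV16, and 0 of 8 passed in either. The 6 oligodendrocyte markers summed to 61.9 to 66.4 CPM in SHAM, 70.3 to 99.4 CPM in MOG, 57.0 to 63.5 CPM in GB20 and 56.2 to 64.4 CPM in GV16. Of these, Cnp alone passed in MOG vs. SHAM and against MOG. The 8 pigment epithelium markers summed to 14.5 to 20.7 CPM in SHAM, 25.9 to 31.4 CPM in MOG, 26.5 to 30.9 CPM in GB20 and 14.7 to 37.5 CPM in GV16, and 0 passed in these comparisons. The part of these cell types in the levels of the 10 genes was not tested.

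**Figure D5:**
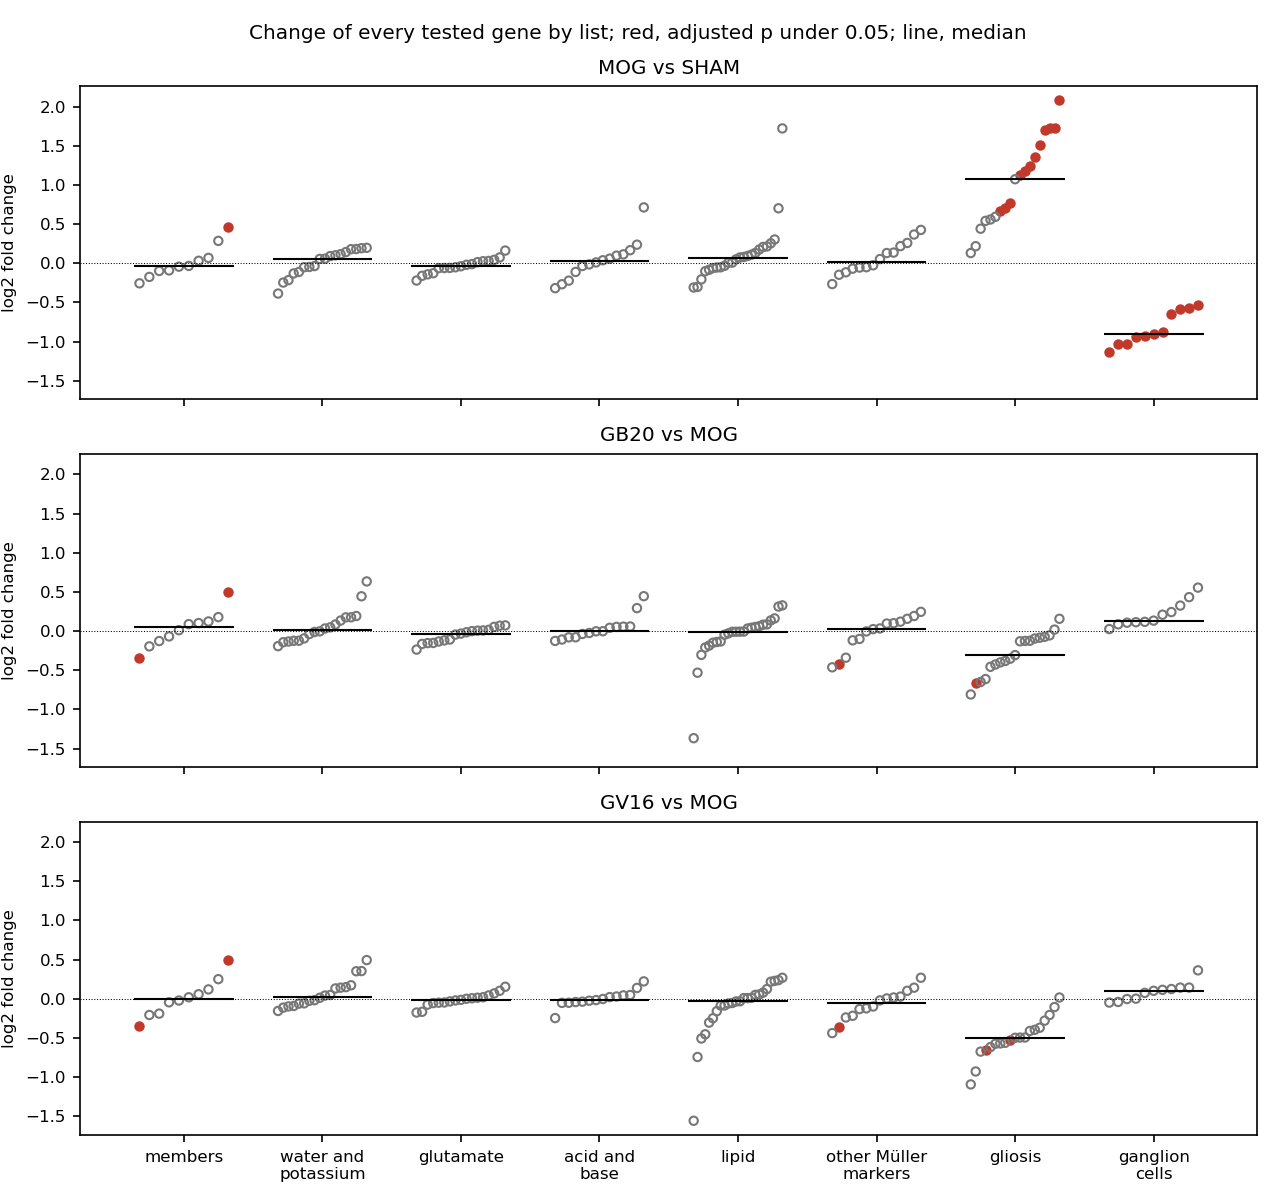
Log2 fold change of every tested gene of the 10, of 6 functional lists and of the retinal ganglion cell markers in 3 comparisons (points; red, adjusted p under 0.05; line, median of the list). The homeostasis lists lie around 0 while gliosis genes lie above it and ganglion cell markers below it in MOG vs. SHAM.

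Patterns across the 12 libraries were compared by Pearson's r of log2 CPM over 12277 genes with a mean of at least 5 CPM. The genes most like Aqp4 were Pde8b, a phosphodiesterase (r = 0.955), Slc20a2, a phosphate transporter (r = 0.924), and Dpy19l3 (r = 0.908). Slc20a2 stood at 39.8 ± 1.80, 55.2 ± 3.13, 38.8 ± 1.25 and 40.5 ± 2.36 CPM in SHAM, MOG, GB20 and GV16 (SD, n = 3). The genes most like Car14 were Rmdn3 (r = 0.965), the clock repressor Cry1 (r = 0.937) and CT025652.2 (r = 0.919). Cry1 stood at 59.4 ± 2.95, 53.4 ± 0.20, 70.5 ± 5.47 and 69.2 ± 2.36 CPM in the same order. These values describe 12 libraries that share their groups and depth. Among the 10 genes themselves, r ran from -0.70 between Aqp4 and Glul to 0.78 between Slc1a3 and Abca8a.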

How the data were processed

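Retinal RNA of 12 libraries (SHAM, MOG, GB20 and GV16, 3 each, grouped by the sample labels) was analysed. The authors enriched polyadenylated RNA, aligned reads to mm10 with HISAT2 2.0.5 (per the labels) and counted reads on genes by FeatureCounts. The deposited counts are whole numbers and not normalized. The authors also deposited FPKM values, which equal those counts scaled by 1 constant per library and by gene length and so are no separate measurement. How the counting used strand and multiply aligned reads is not given in the sources used here. Totals ran from 15860278 to 19194280 counts per library. Within each group, no pair of libraries agreed within sampling noise (chi-square per gene at least 3.03), and pairs across groups were not examined in this way.

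The tests used edgeR 4.0.16 (R 4.3.3). Libraries were scaled by TMM after the filter on low counts (filterByExpr) and fitted over all 12 libraries with 1 mean per group, robust quasi-likelihood dispersion and no block (8 residual degrees of freedom), 2-sided. Adjusted p-values are Benjamini-Hochberg over 18299 genes, with a threshold of 0.05. CPM used TMM library sizes, with a prior count of 2 on the log2 scale. Gene names came from GENCODE vM21 on GRCm38, the build mm10 stands for. DESeq2 1.42.0, limma 3.58.1, other scalings, filters and gene length offsets were tried as alternatives. The labels do not say what the replicate number stands for. In GB20 vs. SHAM and GV16 vs. SHAM each same-numbered pair correlated over 0.1 in its deviations from the group means (0.18, 0.48 and 0.44, and 0.18, 0.25 and 0.25). In the other comparisons some pairs did not, and in GB20 vs. GV16 the values were -0.13, 0.04 and 0.07. The limit of 0.1 was applied to these same libraries, so a pairing is not established. The fit with the replicate number as a block over all 12 libraries is printed where it changes a call. The members and lists were chosen with earlier results of these data known. Genes named were the 10 members, up to 4 genes called per list and comparison with the largest change, and the 3 genes most like each called member. Kcnk1, Aqp1, Dkk3, Pax2 and Aph1a were chosen after their values were seen, as markers, partners or overlapping genes. Sncg was named because the paper reports it as reversed.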

Additional observations from a re-analysis of the deposited data

How the results depend on the processing

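Aqp4 rose in MOG vs. SHAM under each of the 24 alternatives. The number of the 10 genes called in MOG vs. SHAM was 1, and it was 2 with DESeq2 on all 12 libraries, with gene length offsets and with the replicate block and length offsets together, and 3 with no filter on low counts. In GB20 vs. MOG and GV16 vs. MOG it was 2, and it was 0 with each of the 3 settings that fitted log2 FPKM in limma (pseudocounts of 1 and 0.1, or no filter). It was 3 with DESeq2 on 6 libraries in GV16 vs. MOG, where Glul passed too (adjusted p 0.0118). It was 1 with limma-voom in GV16 vs. MOG, where Aqp4 missed the threshold with an adjusted p of 0.0583. In GB20 vs. SHAM it was 0, and it was 1 (Car14) with no filter, with length offsets, with the replicate block and with both. In GV16 vs. SHAM it was 0, and it was 1 with length offsets, with the replicate block and with both, and 2 with no filter. Leaving out 1 library gave 1 to 2 in MOG vs. SHAM, 0 to 2 in GB20 vs. MOG and in GV16 vs. MOG, and 0 to 1 in GB20 vs. SHAM and in GV16 vs. SHAM. The number was 0 in GB20 vs. GV16 throughout. The cause of these moves was not tested.

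Same-numbered libraries of 2 groups correlated between -0.13 and 0.48 in their deviations (8 of 18 pairs over 0.1, against 5 of 36 pairs of other numbers). Each such pair was over 0.1 in GB20 vs. SHAM and GV16 vs. SHAM, and some were not in the other comparisons. The labels do not say what the shared number stands for. The replicate block raised the DEGs among all genes from 245 to 404 in MOG vs. SHAM, from 44 to 73 in GB20 vs. MOG and from 30 to 47 in GV16 vs. MOG, and no filter gave 539, 140 and 73.

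Signs turned only where the log2 difference was small and not called. With length offsets, without and with the replicate block, Slc1a2 was at -0.023 and -0.022 in MOG vs. SHAM and at 0.0083 and 0.0091 in GB20 vs. MOG, Dbi was at -0.066 and -0.071 in GB20 vs. MOG, and Glul was at 0.0315 and 0.0317 in GV16 vs. SHAM. Glul was at 0.0013 there with DESeq2 size factors and at 0.00017 with edgeR on 6 libraries. Leaving out 1 library gave, in MOG vs. SHAM, -0.087 to 0.035 for Kcnj10, -0.039 to 0.15 for Apoe, -0.25 to 0.038 for Dbi and -0.079 to 0.0029 for Abca8a. It gave -0.10 to 0.10 for Dbi in GB20 vs. MOG. In GV16 vs. MOG it gave -0.11 to 0.044 for Kcnj10, -0.015 to 0.12 for Slc1a3, -0.057 to 0.0058 for Slc1a2 and -0.0020 to 0.039 for Apoe. In GB20 vs. GV16 it gave -0.025 to 0.021 for Aqp4 and -0.057 to 0.097 for Car14, and in GV16 vs. SHAM -0.034 to 0.022 for Glul. With 3 libraries a group, log2 differences of these genes had standard errors of 0.07 to 0.13, which sets what could be detected.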

Other observations

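Cnp, an enzyme gene of myelinating cells, rose in MOG vs. SHAM by 0.50 on the log2 scale (adjusted p 0.00776 in edgeR's quasi-likelihood test) and fell against MOG by 0.58 in GB20 (adjusted p 0.00767) and by 0.70 in GV16 (adjusted p 0.00218). The microglial genes C1qa and Csf1r rose in MOG vs. SHAM by 0.99 (adjusted p 0.0451) and 0.59 (adjusted p 0.0269), and neither passed against MOG in a needled group. Opn1mw, a cone opsin gene, rose in GV16 vs. SHAM by 0.35 (adjusted p 0.0404). Of 8 rod and 8 bipolar cell markers, 0 passed in edgeR's test in any of the 6 comparisons, beside 0.00546% to 1.34% of all tested genes. The 6 T cell markers summed to at most 1.61 CPM in a library, and none passed the filter on low counts.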
